A study of Homo sapiens with 54 samples.

Results

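The genes described here lie on the distal part of the long arm of chromosome 7 and were chosen by measured values. They start at chr7:92487020-155781485 (hg38, plus strand of the assembly), an interval that was found because its genes read lower in mutant than in wild-type STAT6 cells, and they reach a mean of at least 10 UMIs (unique molecular identifiers, 1 per captured RNA molecule) per 1000000 library UMIs (CPM) over all 54 libraries. SAMD9, SAMD9L, PARP12 and INSIG1 were left out by the same rule. Except for promoters, the start of a gene means its lowest position, whichever strand the gene lies on. This leaves 227 members of the 8925 genes that pass the CPM limit, 2.54% of them. The table lists 703 genes that start in the interval, and 472 of these stay under the limit. Of the members, 185 are protein coding and 42 are not, and 71 overlap another gene that passes the limit, so that counts of such pairs may be shared.

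Chromosome 7q carries genes of very different work: subunits of the DNA replication helicase (MCM7), of the Polycomb methyltransferase complex (EZH2), of the actin-nucleating Arp2/3 complex (ARPC1A, ARPC1B), respiratory chain proteins, splicing factors and many zinc finger transcription factors. Losses of 7q are known from myeloid neoplasms, gains of chromosome 7 from follicular lymphoma, and EZH2 is itself mutated in follicular lymphoma. The table holds RNA only, and copy number was not tested.

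The cells were OCI-Ly1, a B cell lymphoma line with the t(14;18) translocation, stably expressing a Flag-tagged STAT6 from a CMV-driven vector: STAT6 WT, or STAT6 MUT with D419G, D419N or N421K in the DNA binding domain. All cells, WT included, received IL-4 at 10 ng/ml for 20 min, were washed, and were harvested after 2, 4 or 8 h without IL-4; no unstimulated or empty vector group was analysed here. OCI-Ly1 cells also carry a STAT6 variant of their own. At each time point there were 9 WT libraries and 3 of each mutant line, labelled as biological replicates, 27 WT and 27 MUT in all. An SD over all time points (n = 27, or n = 9 for a mutant line) mixes change with time and spread among replicates. How many transductions lay behind a line is not stated, and the transduced population and the mutation cannot be told apart. Neither can time point and plate row.

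Library totals ran from 161518 to 2978715 UMIs with a median of 885258.5, and 8 libraries, 6 MUT and 2 WT, held under 0.5 of the median. All 7 B cell markers were present in every library, from 98.0 CPM for the lowest value of MME upwards, whereas LYZ, CD14 and HBB had a median of 0 CPM. Of 2 epithelial markers, KRT8 had a median of 0 CPM, with 41 libraries at 0, and CDH1 had a median of 11.5 CPM. STAT6 itself had a median of 162 CPM in WT, 147 in D419G, 148 in D419N and 127 in N421K. How much of this was transgene RNA and how much endogenous was not tested, so these values are not levels of the construct.

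The members took a smaller share of RNA in each mutant line. They took 2.48% ± 0.0385 (SD, n = 27) of the UMIs of a WT library, from 2.41% to 2.55%, and 2.22% ± 0.103 (SD, n = 27) of a MUT library, from 2.03% to 2.36%. The highest mutant library was thus under the lowest WT library. By line the share was 2.26% ± 0.0624 in D419G, 2.27% ± 0.0667 in D419N and 2.12% ± 0.0975 in N421K (SD, n = 9 each). Another measure, which gives each member equal weight, was the median over members of log2 CPM minus the mean of the WT libraries of the same time point. On this scale WT libraries lay between -0.09 and 0.08, D419G between -0.20 and -0.06, D419N between -0.19 and -0.08 and N421K between -0.29 and -0.16. All 27 mutant libraries were below 0, and 25 were below every WT library; the exceptions were 1 D419G and 1 D419N library. At 8 h, 8 of the 9 mutant libraries lay below all 9 WT libraries, and at 2 and 4 h all 9 did. On the same scale, genes of all other chromosomes averaged 0.01 in WT and 0.00 in MUT, and chromosome 7 genes before the interval 0.01 and -0.03. Single MUT libraries ranged from -0.09 to 0.06 and from -0.21 to 0.06. Some libraries of low total read low outside the members too. D419G replicate 3 at 4 h read -0.21 before the interval and -0.19 in the members. At 8 h, D419N replicate 3 read -0.14 and -0.19, and N421K replicate 2 read -0.13 and -0.16. In these the drop was not confined to the members. Without the 8 libraries of low total the MUT minus WT difference of the members was -0.16, as with them. These values chose the members and are a description, with no test.

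Fold changes from the fit across all genes show the same per gene. Across time points the members' median log2 fold change, MUT over WT, was -0.17 with quartiles of -0.26 and -0.06, beside 0.00 over all 9261 genes tested. It was below 0 for 196 of 227 members, 86.3%. Past an adjusted p of 0.05 (edgeR quasi-likelihood test, Benjamini-Hochberg over all genes), 103 members were lower, where the background over all genes was 6.62%, and 2 were higher, where it was 6.74%. Since the contrast is the one that found the interval, nothing is read from these counts. Without the N421K line 54 were lower and 1 was higher. The 2 h median was -0.19, and those of the later time points were -0.17 each. By line it was -0.13 in D419G, -0.14 in D419N and -0.22 in N421K, with 32, 21 and 100 members called lower beside backgrounds of 2.22%, 1.26% and 6.92%. The D419G count was 11 and 14 without replicates 1 and 2 of all groups and 14 and 13 without D419G replicates 1 and 2. The D419N count was 9 without replicate 2 and the N421K count was 64 without its replicate 3, while these medians stayed between -0.14 and -0.12, between -0.15 and -0.13 and between -0.23 and -0.21. A total of 148 members were below 0 in all 3 lines, and for 122 members the lowest of the 3 values was that of N421K.

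The median was below 0 at every expression level. The 62 members at 100 CPM or more had a median of -0.18, the 84 at 30 to 100 CPM one of -0.15 and the 81 at 10 to 30 CPM one of -0.13. By biotype, the 185 protein-coding genes had a median of -0.18, with 163 below 0, whereas the 22 processed pseudogenes had one of -0.03, with 15 below 0. Reads of a processed pseudogene can stem from its parent gene elsewhere in the genome, which was not tested. This touches some of the most abundant members. ENSG00000283041, a processed pseudogene inside CHCHD3, had 1308 ± 75.4 CPM in WT and 1300 ± 169 in MUT (SD, n = 27 each), and EEF1B2P6, a copy of the translation factor gene EEF1B2, had 1034 ± 131 and 941 ± 179. The near-identical copies POLR2J, POLR2J2 and POLR2J3 had log2 fold changes of -0.29 each; how counts were divided among them is uncertain.

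The lower values did not end with the last member. The 3 genes just before the interval had log2 fold changes of 0.14 ± 0.08 (KRIT1), 0.15 ± 0.07 (ANKIB1) and 0.13 ± 0.09 (GATAD1; all SE). Just inside the start, RBM48 and FAM133B read 0.04 ± 0.09 and -0.01 ± 0.06, near 0. The next members, VPS50, RPS27P17, GNG11, BET1 and ENSG00000236453, read -0.08, 0.11, 0.10, -0.06 and 0.04. CASD1, which follows them 2.02 Mb into the interval, read -0.30. At the other end, PAXIP1-DT, RBM33-DT and RBM33 read -0.06 ± 0.10, -0.21 ± 0.08 and 0.03 ± 0.05. LMBR1, NOM1 and UBE3C, the next genes outside, read -0.29 ± 0.08, -0.20 ± 0.05 and -0.20 ± 0.05. In all, 8 genes past the limit lie between the interval and the chromosome end, and their median was -0.17, with 87.5% below 0. The 233 genes of chromosome 7 before the interval had a median of -0.01. By 10 Mb bins of the gene start, the members' median was -0.12 in the bin from 90 Mb (38 genes), -0.22 from 100 Mb (74 genes), -0.17 from 110 Mb (10 genes), -0.13 from 120 Mb (29 genes), -0.09 from 130 Mb (32 genes), -0.19 from 140 Mb (23 genes) and -0.18 from 150 Mb (21 genes). The bin from 100 Mb was the lowest bin in D419G (-0.17) and D419N (-0.19). In N421K the bins from 100 and 150 Mb were both at -0.27, whereas those from 120 and 130 Mb were at -0.14. Before the interval the lowest bin was that from 70 Mb, at -0.06 (44 genes).

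No other chromosome, taken whole, had a median of this size. Arms or segments of other chromosomes, which a median over a whole chromosome can hide, were not examined. Over the 22 others, X included, medians for MUT over WT ran from -0.04 (chromosome 22) to 0.05 (chromosome 13). The lowest in a single line was -0.06 in N421K, again on chromosome 22, and the highest was 0.10 in D419G on chromosome 21, where 94 genes pass the limit. Values are descriptions, as the interval was found by them.

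The 4 genes left out of the members lie in the same interval but had log2 fold changes above 0, of 1.23 ± 0.11 for SAMD9, 1.91 ± 0.16 for SAMD9L, 0.27 ± 0.07 for PARP12 and 0.09 ± 0.07 for INSIG1 (SE). SAMD9 and SAMD9L, interferon-inducible growth restriction factors, had 16.5 ± 5.29 and 5.32 ± 2.47 CPM in WT and 36.0 ± 14.3 and 17.4 ± 11.3 in MUT (SD, n = 27 each). PARP12, an antiviral ADP-ribosyltransferase, had 44.2 ± 8.72 and 52.9 ± 13.4 CPM, and INSIG1, an ER brake on sterol synthesis, had 117 ± 66.1 and 127 ± 66.5.

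CDK6, the kinase that with D-type cyclins drives entry into S phase, starts inside the interval but averaged 7.17 CPM of library total and so is no member. It had between 5.19 and 16.2 CPM in WT, with a median of 10.1, and between 0 and 9.76 in D419G, 0 and 10.5 in D419N and 0 and 3.93 in N421K. All 9 N421K libraries were below every WT library, as were 6 of 9 D419N and 3 of 9 D419G libraries. The counts behind this are small, 324 UMIs over the 27 WT and 103 over the 27 MUT libraries, and 5 mutant libraries held none. These were 2 D419G, 2 D419N and 1 N421K library, all counted above as below every WT library. Their totals, 161518 to 399227 UMIs, were all under 0.5 of the median, so that depth may add to these counts. The log2 fold changes of CDK6 against WT were -0.63 ± 0.23 in D419G, -1.25 ± 0.25 in D419N and -2.04 ± 0.25 in N421K (SE). In D419G, where 6 of 9 libraries lay within the WT range, the value did not pass the threshold. Since the interval was found by mutant against WT, these values against WT are a description. The difference among mutant lines, which the rule did not use, passed in the joint test (adjusted p = 0.0373) and for N421K against D419G (log2 fold change -1.41 ± 0.36, adjusted p = 0.0182), by edgeR's quasi-likelihood test. In the same quasi-likelihood test, N421K against D419N (-0.79 ± 0.39, adjusted p = 0.341) and D419G against D419N (0.62 ± 0.35, adjusted p = 0.573) missed the threshold. With no filter on low counts the adjusted joint p was 0.0605. The rule's CPM limit was met by ACTR3B, ZNF775 and ZNF277 at 10.2, 10.3 and 10.4 CPM, and missed by SH2B2, ZSCAN21 and ENSG00000272219 at 9.49, 9.51 and 9.91. In a fit without a count filter the former read -0.42, -0.30 and -0.07 in log2 fold change and the latter -0.43, -0.38 and -0.59.

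The counts of the gene groups that follow stand beside 103 of 227 members, 45.4%, called lower, and 6.62% of all genes. They come from the contrast that found the interval and are a description, with no test. Among the genes of cell cycle and DNA maintenance, all 9 members read below 0 against WT, from -0.36 to -0.10, with 4 called lower. MCM7, a subunit of the helicase that unwinds DNA for replication (it starts at position 100092233 of chromosome 7), had a lowest, median and highest level of 701, 800 and 948 CPM in WT, 621, 711 and 869 in D419G, 635, 746 and 895 in D419N and 554, 658 and 839 in N421K. The ranges overlap, and 8 of 9 N421K libraries lay under the lowest WT library. Its log2 fold change was -0.19 ± 0.04 (SE). ORC5 of the origin recognition complex read -0.36 ± 0.07, the caspase gene CASP2 -0.23 ± 0.06 and the DNA damage response gene PAXIP1 -0.10 ± 0.06. MCM7 overlaps AP4M1 on the other strand.

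The 8 chromatin genes were nearer to 0, with a median of -0.12 and 3 called lower. EZH2, the histone H3 lysine 27 methyltransferase (start at position 148807257), kept within the WT range in all mutant libraries: the lowest, median and highest values were 123, 174 and 224 CPM in WT, 129, 185 and 214 in D419G, 130, 158 and 223 in D419N and 138, 171 and 195 in N421K. Its log2 fold change was -0.02 ± 0.05 (SE). The histone H3 lysine 4 methyltransferase KMT2C read -0.20 ± 0.05, TRRAP, a scaffold of acetyltransferase complexes, -0.19 ± 0.06, and KMT2E, of the MLL family, -0.02 ± 0.05.

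Of the 8 actin genes 6 were called lower. ARPC1B, the Arp2/3 subunit of blood cells (start at position 99374249), had 951 to 1363 CPM in WT with a median of 1168, against 830 to 1036 in D419G, 847 to 1050 in D419N and 662 to 858 in N421K. All 27 mutant libraries were under the WT median and all 9 N421K libraries under the lowest WT library. Its log2 fold change was -0.42 ± 0.04 (SE), beside -0.19 ± 0.04 for its paralog ARPC1A, and its gene overlaps PDAP1 on the other strand. ZYX, which codes for the focal adhesion protein zyxin, was the lowest of all members at -0.70 ± 0.11 and ranged from 12.1 to 45.2 CPM in WT and from 4.74 to 16.6 in N421K. MTPN, a regulator of actin capping, read -0.06 ± 0.04.

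Other groups read as follows. Of 19 mitochondrial and metabolic members 18 were below 0 and 13 were called lower, with a median of -0.18. FASTK, a regulator of mitochondrial RNA, read -0.56 ± 0.08, the ATP synthase subunit ATP5MF -0.28 ± 0.04 and the complex I subunit NDUFB2 -0.15 ± 0.04. Of 18 genes of RNA synthesis and processing 13 were called lower, with TNPO3, the import receptor of SR splicing factors, at -0.20 ± 0.03. The 14 genes of membrane traffic had a median of -0.17, with 6 called lower, LAMTOR4 of the lysosomal Ragulator at -0.31 ± 0.04 among them. In the 8 genes of protein turnover, all below 0, 4 were called lower, such as the ubiquitin-conjugating enzyme UBE2H at -0.25 ± 0.05. Of 19 transcription factor members, 14 were below 0 and 7 were called lower, ZKSCAN1 at -0.23 ± 0.05 among them. IRF5, an interferon regulatory factor, stood at a median of 15.6 CPM in WT and of 14.4, 13.4 and 18.5 in D419G, D419N and N421K, with a log2 fold change of 0.10 ± 0.12 across time points. Its 2 h mean was 11.7 ± 4.50 CPM in WT against 6.76 ± 3.24 in MUT, whereas its 8 h mean was 16.6 ± 5.57 against 20.2 ± 5.06 (SD, n = 9 each). The fold change was thus below 0 at 2 h and above 0 at 8 h, and the interaction with time point missed the threshold (edgeR quasi-likelihood test, adjusted p = 0.166). The HMG-box factor gene HBP1 read 0.20 ± 0.14. Of 8 members of innate immunity and signalling 4 were called lower, with the calcium channel gene ORAI2 at -0.33 ± 0.04 and the G protein subunit gene GNB2 at -0.30 ± 0.05, while the ubiquitin ligase gene TRIM56 read -0.00 ± 0.04. The lists, like the members, were drawn up with earlier results known.

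The 5 lowest members were ZYX and FASTK, given above, the glypican gene GPC2 at -0.70 ± 0.11, MBLAC1 at -0.48 ± 0.11 and the mitochondrial peptidase gene IMMP2L at -0.47 ± 0.09. The 5 highest were MET, the receptor of hepatocyte growth factor, at 0.52 ± 0.12, ZC3HAV1, the zinc finger antiviral protein that binds CpG-rich RNA, at 0.40 ± 0.06, the pseudogene ENSG00000279483 at 0.21 ± 0.13, HBP1, and the pseudogene EIF4BP6 at 0.13 ± 0.06. MET and ZC3HAV1 were the 2 members called higher. By line, MET read -0.05 in D419G, 0.61 in D419N and 0.78 in N421K, and its call was lost without the N421K line. Calls against WT are a description here too, as that contrast found the interval. For ZC3HAV1 (minus strand, lowest position 139043515) 20 of 27 mutant libraries lay above the highest WT library of any time point, at 125 CPM.

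Whether the mutant lines differed from each other is a question the rule did not use. In the joint test among the 3 lines 11 of 227 members, 4.85%, passed an adjusted p of 0.05 (edgeR quasi-likelihood test), beside a background of 2.39%. The number was 2 when replicate 1 of all groups, or only replicate 1 of N421K, was left out, and 7 without replicate 2 of all groups. N421K against D419G gave 10 members, 9 lower and 1 higher in N421K, beside 1.32% of all genes. N421K against D419N gave 11, all lower in N421K, beside 1.88%. D419G against D419N gave 0, beside 0.196%, and 1 member was called by DESeq2. At an unadjusted p under 0.05 there were 31 members, 13.7%, beside 9.44% of all genes. Without replicate 1 of all groups, the N421K comparisons gave 2 and 1 members, and without N421K replicate 1 they gave 2 and 3. They fell to 6 against D419G without D419G replicate 2 or 3, N421K replicate 3 or replicate 2 of all groups, and to 4 without replicate 3 of all groups. Against D419N they fell to 6 and 7 without D419N replicates 1 and 2, to 7 without N421K replicate 3 and to 4 without replicate 2 of all groups.

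CUX1, a homeodomain transcription factor (start at position 101815904), had the lowest adjusted p of the joint test. Its lowest, median and highest levels were 281, 327 and 376 CPM in WT, 266, 288 and 384 in D419G, 212, 256 and 332 in D419N and 178, 205 and 261 in N421K. The N421K libraries all lay below the lowest WT library and below the lowest D419G library. By edgeR's quasi-likelihood test the log2 fold change of N421K was -0.54 ± 0.06 against D419G (adjusted p = 2.62e-10) and -0.29 ± 0.06 against D419N (adjusted p = 0.00198). That of D419G against D419N, 0.24 ± 0.06, missed the threshold (adjusted p = 0.0798). The log2 fold change of ARPC1B in N421K was -0.33 ± 0.05 against D419G (adjusted p = 1.09e-05) and -0.37 ± 0.05 against D419N (adjusted p = 3.54e-07). These 2 genes passed the joint test under all 27 alternatives, with adjusted p values of at most 2.42e-05 and 0.00320.

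A further 5 members were lower in N421K than in each of the other 2 lines. SLC12A9, of the cation-chloride cotransporter family, had 62.5 ± 9.16 CPM in N421K, 86.0 ± 9.13 in D419G and 81.4 ± 17.6 in D419N (SD, n = 9 each). The D419N libraries lay between 46.8 and 70.3 at 2 h and at 85.4 or more later. Its N421K libraries, from 47.4 to 72.8, all lay below the WT range that began at 81.1. SSBP1, the mitochondrial single-stranded DNA-binding protein, had 438 ± 21.9 CPM in N421K, 505 ± 32.5 in D419G and 506 ± 37.6 in D419N, and again all 9 N421K libraries, up to 484, lay under the lowest WT library at 515. ZYX, the mitochondrial fission gene FIS1 and PRKRIP1 were the other 3, at -0.76 ± 0.19, -0.24 ± 0.06 and -0.37 ± 0.09 against D419G. Each of the 5 lost the call without N421K replicate 1, with adjusted joint p values from 0.0540 to 0.206, and without replicate 1 of all groups. MET went the other way, at 20.1 ± 12.5 CPM in N421K, 17.1 ± 3.55 in D419N and 11.9 ± 4.59 in D419G (N421K over D419G 0.83 ± 0.20, adjusted p = 0.00902). Its N421K libraries are spread from 7.73 to 38.9 CPM, the 3 of 8 h lying above every WT library, and its joint call was lost in 8 of 27 alternatives. CHPF2, a chondroitin synthase, CYREN, a regulator of DNA end joining, and LSM8, of the nuclear LSm ring, also passed the joint test, and lost the call in 5, 11 and 8 of 27 alternatives.

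The difference between MUT and WT depended on time point for 3 of 227 members, 1.32%, beside a background of 0.957%, by the interaction of genotype and time point (edgeR quasi-likelihood test). ZC3HAV1 had 113 ± 10.4, 92.4 ± 12.1 and 90.2 ± 13.3 CPM in WT at 2, 4 and 8 h (SD, n = 9 each) and 147 ± 15.7, 149 ± 14.5 and 104 ± 26.2 in MUT. At 2 and 4 h its lowest mutant libraries, 126 and 133 CPM, were above the highest WT libraries, 125 and 115, and at 8 h the ranges overlapped. The log2 fold change was 0.35 ± 0.09, 0.69 ± 0.09 and 0.12 ± 0.10 in turn (interaction adjusted p = 0.0302). SLC37A3, of the sugar phosphate exchanger family, fell from 20.1 ± 7.01 to 7.78 ± 3.47 CPM between 2 and 4 h in WT and stood at 15.4 ± 7.55 and 14.3 ± 4.33 in MUT (adjusted p = 0.0266). LINC03072, a long non-coding RNA, had log2 fold changes of -0.41 ± 0.12, -0.65 ± 0.14 and 0.21 ± 0.14 (adjusted p = 0.0224). No member passed without the N421K line, and 1 passed without replicate 2, 3 or 8. ZC3HAV1 lost the call in 8 of 20 alternatives, among them those without replicate 1, 4, 5, 8 or 9 (adjusted p of 0.0514 to 0.269) and DESeq2 (0.0640). SLC37A3 lost it in 6, those without replicate 2, 3, 7 or 8 included, and LINC03072 in 5, those without replicate 1, 2, 3 or 6 included.

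Change with time within a genotype used nothing of the rule. In WT, 82 of 227 members, 36.1%, changed between 2 and 8 h, 33 upwards and 49 downwards, beside 30.7% of all genes tested (edgeR quasi-likelihood test, adjusted p under 0.05). Between 2 and 4 h 37 members changed, 16.3%, beside 13.0%. In MUT, 82 of 226 members tested, 36.3%, changed between 2 and 8 h, 37 upwards and 45 downwards, beside 34.1%, and 21 between 2 and 4 h, 9.29%, beside 8.43%. Of 226 members tested in both, 50 changed from 2 to 8 h in both, 22.1%, all in the same direction. Over all 9045 genes tested in both the share was 19.9%, and 99.4% of those had the same direction. The MUT counts moved with single replicates and lines: leaving out replicate 3 gave 47 and 3, leaving out N421K gave 53 and 6, and the 4 h count was 11 without replicate 1, 13 without the D419G line and 10 without the D419N line.

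MET had the largest rise in WT, from 6.98 ± 1.27 to 17.3 ± 3.92 CPM (SD, n = 9 each; log2 fold change 1.34 ± 0.20, adjusted p = 1.94e-07), and rose in MUT by 1.32 ± 0.20 (adjusted p = 2.93e-07). The pseudogene CDC26P1 rose in WT by 0.71 ± 0.14 and LRRC61 by 0.57 ± 0.19. SLC37A3 had the largest fall, -1.67 ± 0.20 (adjusted p = 5.72e-10), followed by the pseudogene RPS27P17 at -0.93 ± 0.17 and LINC01003 at -0.87 ± 0.19. Over all genes tested, 15.2% rose and 15.6% fell from 2 to 8 h in WT, beside 14.5% and 21.6% of the members. Of 19 transcription factor members 2 rose and 8 fell, of 18 genes of RNA synthesis and processing 2 rose and 6 fell, and of 19 mitochondrial and metabolic genes 4 rose and 1 fell. ORAI2 rose by 0.41 on the log2 scale, UBE2H by 0.44, CASP2 by 0.46 and PDIA4, an ER disulfide isomerase, by 0.34, while ZC3HAV1 fell by 0.40.

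STAT6 binds as a dimer to the palindromic letters TTCNNNNGAA, where N is any base, so that both strands are read at once. The promoters given by RefSeq (GRCh38.p14) cover 300 bases, 250 before and 50 after RefSeq's start of a gene, which can differ from the GENCODE start, and 165 of the members had one. The letters stand in 5 of these, 3.03%, beside 4.75% of the 6652 promoters of all genes past the CPM limit and 6.37% of 27305 promoters in all. The 5 matches are shown because the mutations lie in the DNA binding domain of STAT6; capitals mark the letters searched, in gene direction.
CBLL1 (chr7:107743892-107743917, plus): gctactTTCTCTTGAAgcacatgagg
ZC3HAV1 (chr7:139109683-139109712, minus): tttctcttctTTCTAAAGAAggctcgcgga
UBN2 (chr7:139231082-139231111, plus): gcgtctccgtTTCCACGGAAacaggccgag
AGK (chr7:141551353-141551382, plus): cggcagcggtTTCCCTTGAAcgagccgggg
ACTR3B (chr7:152759502-152759525, plus): gacaTTCGAGCGAAgacttacagg
Of these genes, ZC3HAV1 read 0.40 ± 0.06 in log2 fold change, AGK 0.01 ± 0.13, UBN2 -0.11 ± 0.08, CBLL1 -0.19 ± 0.07 and ACTR3B -0.41 ± 0.12 (SE). A match is a stretch of letters, and binding was not measured.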

How the data were processed

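Each library, labelled by a well position, held RNA of OCI-Ly1 cells. It was made with prime-seq, which tags the 3′ end of transcripts with a UMI. The authors deposited a table of UMI counts per Ensembl gene, not normalized; its values were whole numbers. The submitters' processing notes name hg38; reads went through the Drop-seq pipeline per the study's methods, with the aligner, its version and the annotation not given in the sources used here. Gene positions and biotypes came from GENCODE 44 on the same build. Groups came from the sample titles.

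The members, gene lists and tests were chosen with earlier results of these data known. Genes were kept by edgeR's filterByExpr, scaled by TMM and fitted with edgeR 4.0.16 (glmQLFit, glmQLFTest, R 4.3.3) on the whole table, with Benjamini-Hochberg adjustment over all genes tested and a threshold of 0.05. Models held time point and genotype, time point and line, or 6 groups of genotype and time; change with time was fitted within WT and within MUT, the latter with line. A printed CPM is TMM-scaled, except for the limit of 10, which used library totals. Log2 CPM had a prior count of 2. UMI counts of 3′ ends were not divided by gene length. The genes named were the 7 of the rule, the 5 members lowest and highest in fold change and the 5 highest in level, 3 genes on each side of both ends (1 of them is not reported here), members called among lines or in the interaction, the 3 largest changes with time in WT in each direction, the 4 left-out genes and up to 3 members of each gene list by level. The others (LSM8, ORC5, TRRAP, FASTK as a mitochondrial gene, HBP1 as a factor, the POLR2J copies and the genes at the CPM limit or with promoter matches) were chosen after their values were seen. Alternatives were DESeq2 1.42.0, other scalings and filters, fewer libraries, lines or replicates, a replicate block and counts summed over time points. Scripts were tested on simulated data. Replicates were checked for duplicates: in all 135 pairs within a condition the counts differed by more than sampling alone gives (chi-square over degrees of freedom 1.07 to 3.98). Totals of 161518 to 2978715 UMIs set the precision, and the median standard error of the log2 fold change, MUT over WT, was 0.11 for members at 10 to 30 CPM and 0.04 for those at 100 CPM or more.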

Additional observations from a re-analysis of the deposited data

Results flagged for a closer look

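In 27 groups of 4 to 10 libraries examined, 2 had a library apart from the rest by Dixon's test at the 95% level, which chance gives in about 1 of 20 groups. In both, the lowest WT library at 8 h lay apart from the other 8, at 281 CPM for CUX1 and at 13.2 CPM for ZYX.

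Effects against WT differed among the 3 mutant lines for 11 members by edgeR's quasi-likelihood joint test with Benjamini-Hochberg adjustment. This was 4.85% of the members, beside 2.39% of all genes. The adjusted p was 1.22e-09 for CUX1, 1.27e-07 for ARPC1B, 0.00157 for SLC12A9, 0.00282 for ZYX, 0.00319 for FIS1, 0.00524 for SSBP1 and 0.00685 for PRKRIP1, all lowest in N421K. It was 0.0185 for MET, highest in N421K, 0.0288 for CHPF2, 0.0373 for CYREN and 0.0408 for LSM8. Calls other than those of CUX1 and ARPC1B were lost without replicate 1.

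The difference between MUT and WT varied with time point for 3 members, 1.32%, beside 0.957% of all genes. By the interaction in the same test, the adjusted p was 0.0224 for LINC03072, 0.0266 for SLC37A3 and 0.0302 for ZC3HAV1. None of the 3 passed without the N421K line.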

How the results depend on the processing

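No value changed sign past the threshold under any alternative run. The median log2 fold change of the members, MUT over WT, stayed between -0.18 and -0.16 when 1 replicate number was left out, and the 2 h median was -0.14 without the N421K line. Leaving out 1 replicate gave 75 to 101 members lower in MUT, 11 to 38 in D419G, 9 to 23 in D419N and 64 to 106 in N421K. It gave 2 to 13 members in the joint test among lines, 2 to 10 for N421K against D419G, 1 to 14 for N421K against D419N and 1 to 3 in the interaction. In MUT it gave 47 to 62 members changed at 8 h and 3 to 15 at 4 h. Without the N421K line, 54 members were lower and 1 higher in MUT, 0 passed the interaction, and 53 changed with time at 8 h and 6 at 4 h; the 4 h count was 13 without D419G and 10 without D419N. Without libraries of low total, 17 members differed between N421K and D419N, and DESeq2 called 1 for D419G against D419N. The cause was not tested; each of these fits but that of DESeq2 held fewer libraries.

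With the replicate block, 65 members were lower and 1 higher in MUT. By line, 18 were lower in D419G, 14 in D419N and 73 in N421K, beside 32, 21 and 100 without it. In the interaction 1 member passed, while the joint test gave 13. Same-numbered WT and mutant libraries did not deviate together (correlations of -0.247 to 0.200, 3 of 27 over 0.1; different numbers -0.201 to 0.321), so that the numbers were not taken to pair samples.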
